A study of Mus musculus with 2 samples.

Results

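The 77 protein-coding histone genes described here were chosen by gene symbol from 55536 annotated genes. They form 2 sets: 67 clustered genes, whose symbols name the Hist1 to Hist4 clusters, and 10 variant genes, H1f0, H1fx, H2afj, H2afv, H2afx, H2afy, H2afy2, H2afz, H3f3a and H3f3b. By histone class the clustered set holds 6 H1, 18 H2A, 18 H2B, 12 H3 and 13 H4 genes. The variant set holds 2 H1, 6 H2A and 2 H3 genes, and no H2B or H4 gene. Total RNA-seq measured them in left cerebral cortex from male mice of strain B6CASTF1/J, the F1 hybrid of C57BL/6J and CAST/EiJ, at 25 days of age. There is 1 group of 2 samples, replicates 1 and 2, each made from 300 ng of RNA, with no treatment given in the labels. Both carry the same donor entry; they are taken for 2 animals because the labels number the tissues and replicates separately, and the spread between them may be partly technical. With 1 group no condition can be compared, and with 1 sample of each animal no test between the animals is possible, so every difference below is a description of these 2 libraries.

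Histones are the proteins that DNA is wound around: H2A, H2B, H3 and H4 form the core of the nucleosome and H1 binds the DNA between cores. Most genes for the canonical histones sit in clusters, have no introns, and are transcribed mainly in S phase, when new DNA is packaged. Their mRNAs as a rule carry no poly(A) tail and end just after a stem-loop that is bound by SLBP, so that libraries selected for poly(A) miss most of them, while a total RNA library with ribosomal RNA removed retains them. Variant genes mostly lie apart from the clusters, and mostly have introns and poly(A) tails. They are transcribed throughout the cell cycle and in cells that no longer divide, such as neurons.

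The Hist1 cluster holds 54 of the members at chr13:21715763-23934851 (mm10), Hist2 holds 10 at chr3:96219865-96270132, Hist3 holds 2 at chr11:58948920-58956830, and Hist4 is the single gene Hist4h4 at chr6:136801553-136804415. The variant genes were spread over 8 chromosomes, among them H3f3a at chr1:180800832-180813943 and H3f3b at chr11:116021912-116027962. The variant gene H2afj, at chr6:136808244-136810074, lies near Hist4h4. Library totals were 30372235 expected counts in replicate 1 and 33134266 in replicate 2, and the 77 members together took 0.085% and 0.097% of them. Levels are given in TPM, a gene's share of all transcripts in the library after division by transcript length. The neuronal markers Snap25 and Slc17a7 were at 1162 ± 9.08 and 670 ± 8.02 TPM (SD, n = 2), and the oligodendrocyte and astrocyte markers were present too, which the labelled tissue should hold. In bulk tissue, fewer cells of a type and less RNA per cell cannot be told apart.

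The 3′ ends of the gene models were examined first, since they are what sets the 2 kinds of histone mRNA apart. The motif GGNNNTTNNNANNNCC, 16 bases with a perfect stem of 6 base pairs and a loop of 4 bases, was searched on the transcript strand only. It was found in 46 of the 67 clustered genes, in 1 of the 10 variant genes, and in 0.444% of 21824 other protein-coding genes. The forms below are shown because they differ between histone classes; capitals mark the stem-loop, each stretch is in the noncoding 3′ part of a transcript with 1 exon, and the sequences are those of the GENCODE M21 transcripts.
Hist1h2bg, chr13:23571838-23571863, plus strand: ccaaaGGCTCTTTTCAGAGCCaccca
Hist1h3e, chr13:23561898-23561923, minus strand: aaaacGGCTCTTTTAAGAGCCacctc
Hist1h3g, chr13:23535884-23535909, plus strand: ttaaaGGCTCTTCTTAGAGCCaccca
Hist1h4d, chr13:23581945-23581970, plus strand: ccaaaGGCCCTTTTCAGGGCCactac
Hist1h4i, chr13:22040961-22040986, minus strand: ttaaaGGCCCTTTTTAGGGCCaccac
Hist1h4b, chr13:23757361-23757386, plus strand: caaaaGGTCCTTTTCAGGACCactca
Hist1h4a, chr13:23760795-23760820, minus strand: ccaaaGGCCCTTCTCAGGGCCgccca
H2afx, chr9:44335235-44335260, plus strand: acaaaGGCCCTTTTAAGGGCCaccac

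The form shown for Hist1h2bg was the most common: 26 genes carried it, made up of 3 H1, 10 H2A, 8 H2B and 5 H3 genes and no H4 gene. The form of Hist1h4d was found in 7 genes, all of them H4. The form of Hist1h3e stood in 6 genes of classes H1, H2B and H3. H4 genes also carried the forms of Hist1h4i (2 genes), Hist1h4b (2 genes) and Hist1h4a (1 gene), and none of the 12 H4 genes with a stem-loop had one of the forms found in the H1, H2A, H2B or H3 clustered genes. H2afx, whose protein marks DNA breaks when phosphorylated, was the only variant gene with the motif, and its stem carries the same letters as that of Hist1h4d.

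Of the other 21 clustered genes, 12 have models that hold the coding sequence only and so cannot show a 3′ end, and in 9 the motif was not found. Where the stem-loop was found, 23 gene models end within 74 bases of it, and the other 23 run on past it by 108 to 4884 bases. A poly(A) signal (AATAAA or ATTAAA in the last 60 bases) was present in the models of 17 clustered and 9 variant genes. Both features were present in 14 clustered genes, among them Hist1h1c, Hist1h4h and Hist4h4, and in H2afx. The stem-loop motif was thus present in most clustered gene models, but only 23 of 67 end near one, and the models do not record which end the RNA molecules in this tissue had.

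Of the clustered genes, 56 of 67 were detected, meaning at least 1 TPM in both animals, and all 10 variant genes were, against 58.4% of 21951 protein-coding genes. The median clustered gene stood at 8.59 TPM in replicate 1 and 10.2 in replicate 2 (9.40 ± 1.15, SD, n = 2), and the median variant gene at 32.2 and 35.7 TPM (33.9 ± 2.44). The variant median was therefore higher in each animal, by far more than the animals differed. The sets overlapped gene by gene: 26 clustered genes were above the lowest variant gene, H2afy2, and 41 were below it. Because there are more of them, clustered genes held the larger sum, 1309 and 1478 TPM against 499.7 and 525.9 TPM for the variant genes.

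**Figure D1:**
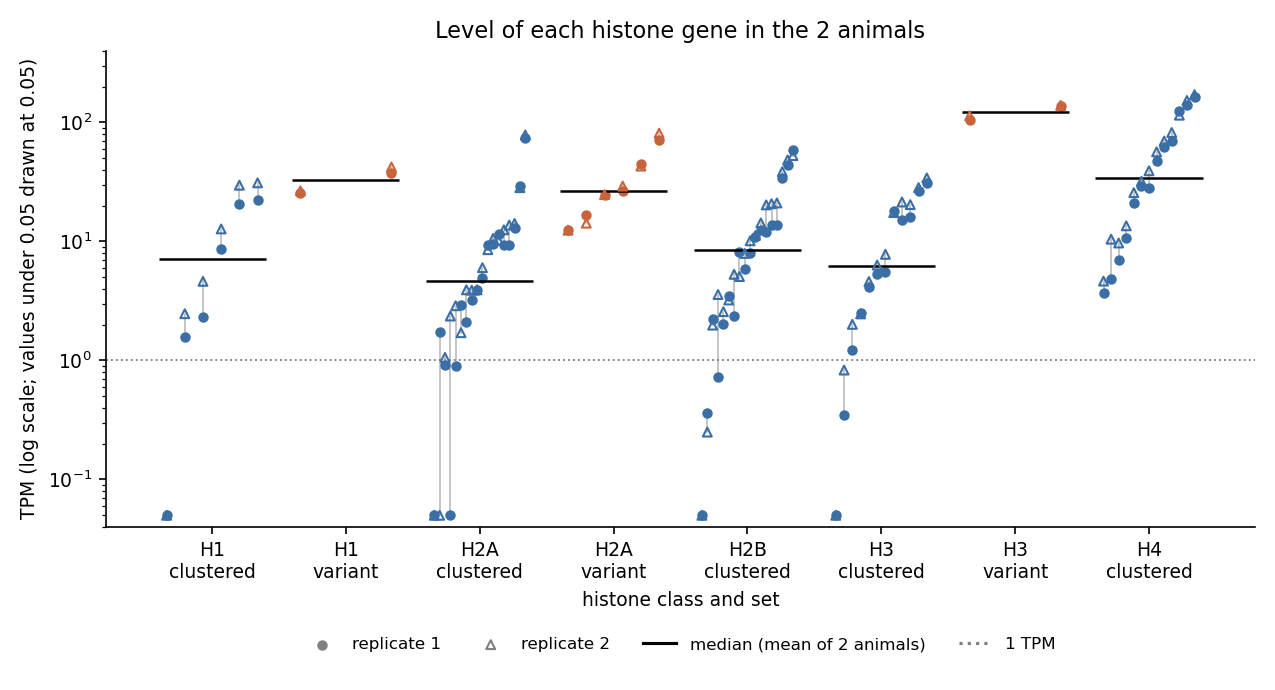
TPM of every histone gene on a log axis, by class and set; filled circles are replicate 1, open triangles replicate 2, a grey line joins the values of 1 gene, black bars are class medians and the dotted line is 1 TPM. All variant genes lie above 12 TPM, while clustered genes run from 0 to 168 TPM and the H4 genes are the only clustered class with no member below 1 TPM.

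H4 has no variant gene among the members, and its 13 clustered genes held 53.6% ± 0.961 of the clustered TPM (710.6 and 782.1 TPM). All 13 were detected. The 4 highest were Hist1h4k at 165 and 171 TPM, Hist1h4h at 140 and 153, Hist1h4m at 124 and 115, and Hist1h4f at 69.1 and 82.2. Hist1h4k and Hist1h4h were also the highest of all 77 members in the gene table. In the second transcript table, made from the same libraries, Hist1h4k was at 2.69 and 4.02 TPM and Hist1h4h at 372.9 and 457.2. The lowest H4 gene was Hist4h4, the single gene of its cluster, at 3.72 and 4.64 TPM. The animals gave nearly the same order of H4 genes. In the gene table the TPM of the top gene exceeded that of the lowest by far more than any gene differed between the animals. The model of Hist1h4k has 312 bases and that of Hist4h4 has 2863. By counts Hist4h4, at 207 and 289, was above Hist1h4n, at 32.2 and 77.8. In the second transcript table Hist4h4 was at 2.78 and 3.43 TPM, close to Hist1h4k.

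H2B also has no variant among the members and summed to 232.1 and 267.1 TPM. Hist2h2bb stood at 58.6 and 52.6 TPM, Hist3h2ba at 43.7 and 48.4, and Hist1h2bg at 33.8 and 38.6. Hist1h2bq and Hist1h2br followed at 13.7 and 13.6 TPM in replicate 1 and 21.1 and 20.7 in replicate 2, but the read counts of these 2 genes were split evenly between a pair of transcripts with nearly the same sequence, so their levels cannot be told apart. Their sum was 27.3 and 41.8 TPM (170.5 and 279.1 counts) in the gene table but 1.00 and 2.28 TPM (24.9 and 26 counts) in the second transcript table, so the sum is uncertain too. Hist1h2bm was the lowest detected H2B gene, at 2.21 and 1.98 TPM, and Hist1h2bh, not detected, was at 0.36 and 0.25. Hist2h2bb lies on the opposite strand from exons of another annotated gene. Whether the counting used strand is not given in the sources used here, so the level of Hist2h2bb could include reads of that gene. It also shares 226 of its 381 bases with Gm42743 on the same strand, which strand cannot separate. In the second transcript table it had 42 and 46 counts (27.8 and 27.1 TPM), against 332.7 and 333.8 counts in the gene table.

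Among the 18 clustered H2A genes the sum was 184.9 and 202.1 TPM. Hist2h2aa2 led with 73.5 and 78.3 TPM, while its neighbour Hist2h2aa1 had 3.91 and 3.92. Every 100-base stretch of Hist2h2aa2 also occurs in a transcript of another gene, mainly Hist2h2aa1, so the split between this pair is uncertain and their sum of 77.4 and 82.2 TPM is the firmer value. Hist3h2a came next with 28.9 and 28.3 TPM, followed by Hist1h2ai at 12.9 and 14.2 and Hist1h2ab at 9.34 and 13.7. Hist1h2af was the lowest detected, at 2.91 and 1.71 TPM. The exons of all 18 clustered H2A genes overlap another annotated gene on the opposite strand, by 129 to 586 bases. Without strand such reads cannot be told apart. The same limit holds for the variant genes H1f0, H1fx, H2afj, H2afx, H2afy, H2afy2 and H3f3a, with overlaps of 141 to 798 bases. Hist3h2a also shares 708 of its 2146 bases with Trim17 on the same strand.

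The 12 clustered H3 genes, which encode H3.1 and H3.2, summed to 125.9 and 145.8 TPM. Hist1h3i at 31.0 and 34.1 TPM and Hist1h3h at 26.6 and 28.3 were highest. Next were Hist1h3e at 16.2 and 20.4 and Hist2h3b at 15.0 and 21.4. All 488 bases of Hist2h3b lie opposite exons of Gm20628, so its level could include reads of that gene. Hist1h3g was at 1.23 and 2.01 TPM and Hist1h3c at 0.35 and 0.83, the lowest with any count. Hist2h3c1 was listed at 0 in both animals, but it has no 100-base stretch of its own, so a 0 there may only mean that its reads were given to its copies.

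Clustered H1 genes encode the linker histones, and each protein has 1 gene. They summed to 55.4 and 80.5 TPM. Hist1h1c (H1.2) was at 22.4 and 31.1 TPM, Hist1h1e (H1.4) at 20.6 and 29.7, Hist1h1a (H1.1) at 8.59 and 12.7, Hist1h1b (H1.5) at 2.31 and 4.62, and Hist1h1d (H1.3) at 1.58 and 2.47. By counts Hist1h1d was not the lowest: it had 232.3 and 406.7, against 111 and 184 for Hist1h1a and 30 and 67 for Hist1h1b. The TPM of Hist1h1d is divided by the length of a model of 7425 bases. In all 5 the value of replicate 2 was the higher. Hist1h1t, the testis-specific H1, had no count in either animal, nor did the testis-expressed Hist1h2aa and Hist1h2ba. With 0 counts, a level of up to about 3 counts in each library cannot be told from none, a limit that covers counting error only. Hist1h2ba had 9.12 and 24.0 estimated counts in the second transcript table, so its 0 depends on how reads were assigned.

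Of the variant genes, those for H3.3, the H3 that is deposited outside S phase, were the highest: H3f3a at 136 and 139 TPM and H3f3b at 105 and 114. The 2 genes encode the same protein. Their ratio was 1.29 and 1.22, and H3f3a was the higher in both animals. Together they gave 241.3 and 252.5 TPM, against 125.9 and 145.8 for all clustered H3 genes. The H3.3 genes thus held 64.6% ± 1.64 of the H3 TPM. The ratio and the share are of whole genes. Exons of H3f3a overlap other annotated genes on the opposite strand by 798 bases, so its level could include reads of those genes. The H3f3b level takes in transcripts not annotated as protein-coding, mainly H3f3b-204 at 53.1 and 58.3 TPM. Its protein-coding transcript H3f3b-201 was at 43.7 and 48.2 TPM.

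Of the H2A variants, H2afz was highest at 70.5 and 81.2 TPM. It encodes H2A.Z.1, found beside the start sites of active genes, and its close relative H2afv, which encodes H2A.Z.2, was at 16.6 and 14.2 TPM, a ratio of 4.26 and 5.70. H2afy, for macroH2A1, was at 44.3 and 43.0 TPM, and H2afy2, for macroH2A2, at 12.5 and 12.4, a ratio of 3.55 and 3.46. The H2afy level takes in transcripts not annotated as protein-coding, so this ratio is of whole genes. Of its protein-coding transcripts, H2afy-201 was at 12.63 and 15.25 TPM and H2afy-202 at 8.31 and 8.13. H2afj was at 26.6 and 29.1 TPM and H2afx at 24.7 in both animals. By whole-gene TPM the order H2afz, H2afy, H2afj, H2afx, H2afv, H2afy2 held in each animal, although H2afj and H2afx differed by little in replicate 1. These 6 genes held 50.8% ± 0.726 of the H2A TPM.

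The linker variants were H1f0, the H1.0 protein of cells that have stopped dividing, at 37.9 and 42.2 TPM, and H1fx, H1.10, at 25.4 and 26.6 TPM. H1f0 was the highest H1 gene of either set. The 2 variants held 53.3% of the H1 TPM in replicate 1 and 46.1% in replicate 2, so which set was the larger changed between the animals. Over all classes the variant genes held 26.9% ± 0.974 of the histone TPM. By expected counts, not divided by length, the share was 44.6% ± 1.62, on a scale on which longer transcripts weigh more.

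**Figure D2:**
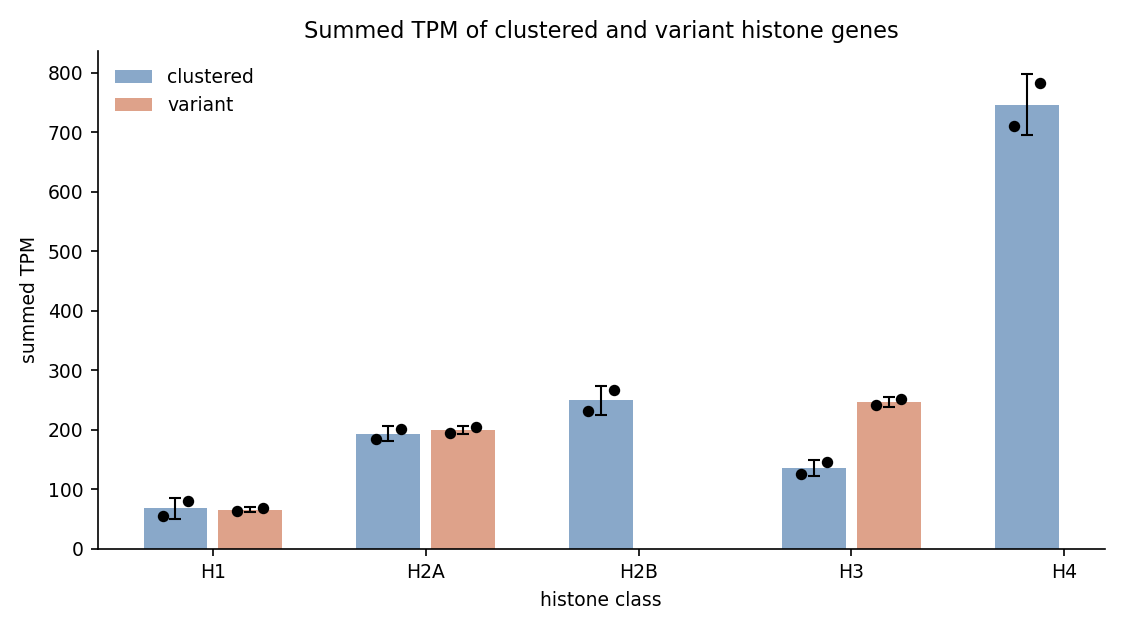
Summed TPM of clustered (blue) and variant (orange) histone genes by class; bars are means, error bars SD over 2 animals, points the animals. H4, which has no variant gene here, stands at 746.4 TPM, and only in H3 does the variant bar clearly exceed the clustered one.

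Several variant genes were spread over more than 1 transcript. H2afz was almost wholly H2afz-201, at 95.5% ± 0.809 of the gene's TPM. H2afy was split: H2afy-201 held 32.0% ± 4.96, H2afy-202 18.8% ± 0.127, and H2afy-204, annotated as a processed transcript and not as protein-coding, 24.4% ± 3.12. H3f3a-201 held 57.0% ± 0.437 and H3f3a-207 32.5% ± 0.283. H3f3b-204, a processed transcript, held 50.9% ± 0.610 of H3f3b, and the protein-coding H3f3b-201 held 42.0% ± 0.662. The animals were close to each other in most of these. The widest gap was in H2afy-201, at 28.5% in replicate 1 and 35.5% in replicate 2.

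The second transcript table gave another split for the H3.3 genes. There H3f3a-207 had 59.3% in replicate 1 and H3f3a-201 had 33.7%. H3f3b-201 was at 0, with H3f3b-202 at 43.3%, the reverse of the first table. For H2afy the tables gave similar shares, apart from H2afy-206 at 10.1% ± 0.128 in the first and 0 in the second. Over the 10 variant genes the counts of the second table were 82.8% to 116% of the gene table's, but their TPM moved more: H3f3a was at 299.3 and 311.1 TPM in the second table, H2afv at 34.2 and 25.0, H2afy at 69.7 and 73.8, and H2afj at 22.6 and 21.7.

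**Figure D3:**
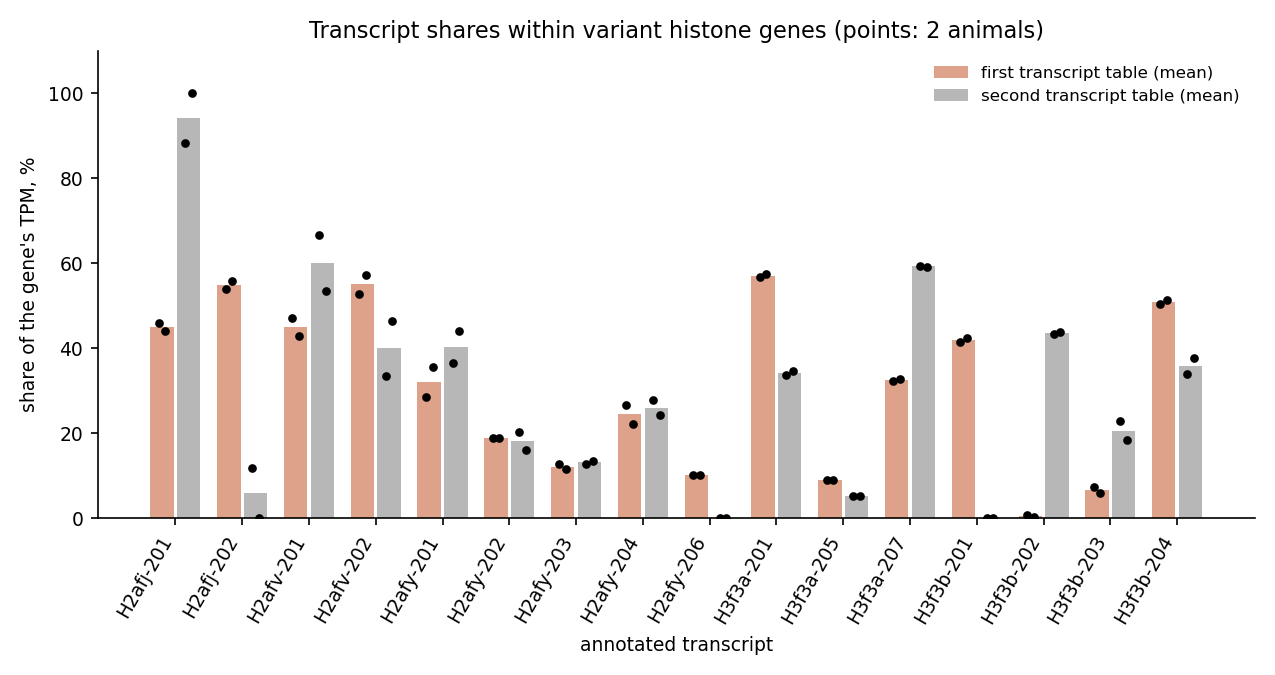
Share of each gene's TPM by annotated transcript in 5 variant genes, for transcripts at 5% or more; orange bars are the first transcript table, grey bars the second, points the 2 animals (replicate 1 on the left). The 2 animals sit close together for most transcripts, but less so for H2afv-201, at 66.6% and 53.5% in the second table. The tables disagree for H2afj, H2afv, H3f3a and H3f3b, as with H3f3b-201 at 42.0% against 0.

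For the clustered genes the tables differed far more. Over the 61 clustered genes whose count averaged 10 or more, Spearman's rho between the TPM of the tables was 0.315, and over the 10 variant genes it was 0.927, with both values from the same libraries. Hist2h2aa2 had no count in the second table, whereas Hist2h2aa1, its near copy, had 576.5 and 718.9. Wide gaps were also found in H4. Hist1h4k had 706.0 and 819.0 expected counts in the gene table and 3 and 5.01 estimated counts in the second. Hist1h4d had 1296 and 1631 against 4 and 38, although all of its 100-base stretches are its own. Hist1h4f had 406.2 and 540.4 against 1 and 6.07. Hist1h4h, at 1043 and 1275 against 853.9 and 1182, and Hist1h4a, at 185.8 and 254.5 against 229.7 and 191.7, were nearer to each other, though Hist1h4a went down between the animals in the second table and up in the gene table. H4 was nonetheless the leading clustered class in both, with 40.4% ± 0.202 of the clustered TPM in the second.

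Among the 12 H4 genes with a stem-loop, the second table held a larger share of the gene table's counts the farther the stem-loop lay from the annotated start of the transcript. Hist1h4f, with the stem-loop 343 bases in, had 0.7%; Hist1h4d, at 353 bases, 1.4%; Hist1h4j, at 374 bases, 27.0%; and Hist1h4h, at 409 bases, 87.8%. These shares sum the counts of the 2 animals, which hides gaps between them. In the second table Hist1h4d had 4 and 38 counts and Hist1h4c 21 and 125, against 686 and 918 for Hist1h4c in the gene table. Spearman's rho was 0.890 over these 12 genes and 0.716 over 43 clustered genes with the motif, both as descriptions across genes that share libraries and, in part, sequence. The annotated length did not follow the same order, since the transcript of Hist1h4d runs 770 bases past its stem-loop. In the second table the effective length of long transcripts is the length less 345.16 bases in replicate 1 and 340.16 in replicate 2, and in the gene table the length less 99 bases; the part of these settings in the gap was not tested.

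**Figure D4:**
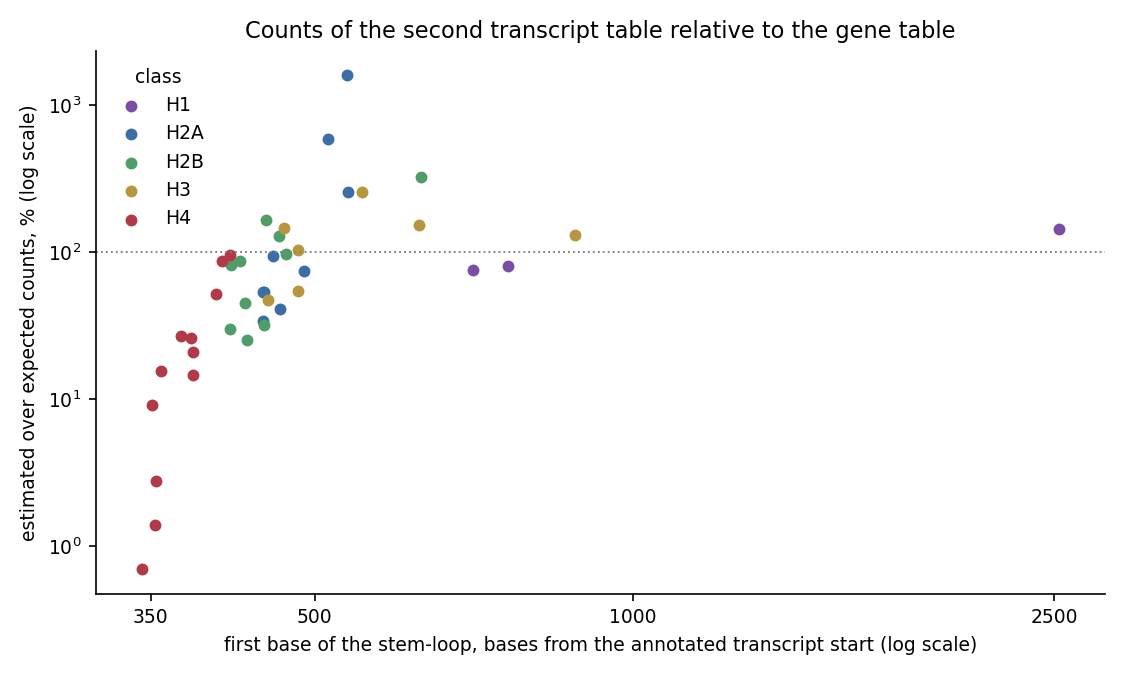
Counts of the second transcript table as a percentage of the gene table's counts (log axis, counts of the 2 animals summed) against the first base of the stem-loop in the annotated transcript (log axis), for clustered genes with the motif and above 0 in the second table; colours are classes. H4 genes rise from 0.7% at 343 bases to 95.7% at 416 bases, and the genes of other classes lie between 25.3% and 1593%.

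The promoters of the members were read from RefSeq (GRCm38.p6), 250 bases before to 50 after the start, and 71 of the 77 genes were matched. All motifs were searched on both strands. CCAAT was present in every matched clustered H1, H2A, H2B and H3 promoter (6, 18, 16 and 10 genes) but in 3 of 12 H4 promoters, and in 37.8% of 26954 other promoters. The octamer ATTTGCAT, a known element of H2B promoters bound by Oct-1, was found in 7 of 18 H2A and 6 of 16 H2B promoters, in none of the clustered H1, H3 or H4 promoters, and in 1.71% of the others. Of the 9 variant promoters, 6 held CCAAT and 1, that of H3f3b, the octamer. TATAAA was in 35 of 62 clustered promoters, 1 of 9 variant promoters and 14.1% of the others. Many H2A and H2B genes stand head to head and share a promoter region, so those counts are not independent. The promoter of Hist1h2bg lies on the plus strand at chr13:23571220-23571379. It is shown because, of the H2B promoters with both the octamer and TATAAA, its gene had the highest mean TPM. All 3 motifs stand in capitals, the first being CCAAT on the minus strand.
Hist1h2bg promoter: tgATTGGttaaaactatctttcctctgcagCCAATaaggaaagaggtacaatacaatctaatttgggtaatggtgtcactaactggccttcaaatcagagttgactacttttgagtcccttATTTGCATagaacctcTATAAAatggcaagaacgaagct
The octamer runs from 59 to 52 bases before the start and the TATA motif from 43 to 38. A match says only that the letters are there. Hist1h2ae, the H2A gene on the other side of this stretch, was at 0.89 and 2.88 TPM, below Hist1h2bg at 33.8 and 38.6. Since Hist1h2bg was picked for its level, this order follows in part from the choice. The gap was smaller in the second transcript table, with Hist1h2ae at 8.36 and 13.1 TPM and Hist1h2bg at 28.1 and 28.4.

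Between the animals, clustered genes were higher in replicate 2 more often than other genes. By log2 of TPM plus 0.5, 49 of 61 clustered genes were higher in replicate 2, against 41.5% of all 18136 genes; a gene entered if its count averaged 10 or more over the animals. Their median difference was 0.25 on the log2 scale, and that of all genes was -0.03. For the 10 variant genes, 7 were higher and the median was 0.05. Counts scaled by TMM, which centres the genes near 0 (52.0% higher, median 0.01), gave 52 of 61 clustered genes at a median of 0.23 and 9 of 10 variant genes at 0.09; H2afy and H2afy2 were lower by TPM and higher by TMM. Scaled to the spike-ins, all genes shifted by 0.14.

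The counting interval bears on how firm single differences are. A 95% exact interval for the ratio of depth-scaled counts lay wholly above 0 on the log2 scale in 30 clustered genes, against 11.0% of all genes, and wholly below 0 in 1, Hist1h2bk, which went from 61.8 to 43.1 counts. The interval covers counting error only, not the difference between animals at large. It also takes the split of reads between near copies as known, so it is too narrow for such genes. Hist1h2bq, Hist1h4n and Hist1h2ao, which have near copies, are among the 30. Of 38 clustered genes with at least 50% of their sequence found in no other gene, 21 had an interval above 0. That limit was chosen after the data were seen. By class, 5 of 5 H1, 12 of 16 H2A, 12 of 17 H2B, 8 of 10 H3 and 12 of 13 H4 genes were higher in replicate 2. The medians of these classes were 0.52, 0.14, 0.19, 0.18 and 0.26.

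The H1 genes had the highest class median, with differences from 0.46 to 0.87. Hist1h1e went from 758.9 to 1223 expected counts and Hist1h1c from 657.8 to 1022, so the interval excluded 0 in both, and it did so in Hist1h1a, Hist1h1b and Hist1h1d too. Hist1h1e shares 496 of its 1930 bases with Gm11398 and Hist1h2be on the same strand, so its counts depend on how reads were assigned. Whether H1 differs from the other classes was not tested. Of the variant genes, the interval was above 0 in H1f0, H2afz and H3f3b, whose TPM differed by 0.15, 0.20 and 0.11.

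Over 2-fold apart were 5 of the 61 clustered genes (Hist1h2ae, Hist1h2ao, Hist1h2bn, Hist1h2bp and Hist1h4n), all higher in replicate 2, and none of the variant genes, against 0.695% of all genes. These are low or have near copies: Hist1h2bn had 4.09 and 22.7 counts, Hist1h2ae 10.8 and 39.3, Hist1h2bp 17.7 and 45.7, and Hist1h4n 32.2 and 77.8. Hist1h2ao was at 0 and 20.2 counts, but with Hist1h2ap, its near copy, the sum was 88.4 and 108.3 counts. Likewise Hist1h4n together with Hist1h4m had 786.0 and 862.6 counts. By TMM-scaled counts only 1 of these, Hist1h2ao, was over 2-fold apart.

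The same direction was seen among genes with sequence of their own. Among the 38 clustered genes with at least 50% of their 100-base stretches found in no other gene, 32 were higher in replicate 2, with a median of 0.26, and among the 14 with at least 90%, 12 were, with a median of 0.26. These limits were chosen after the data were seen. By position, 40 of 49 genes of Hist1, 7 of 9 of Hist2, 1 of 2 of Hist3 and the 1 of Hist4 were higher. By the 3′ end, 16 of 22 genes that end near a stem-loop and 17 of 21 that extend beyond one were higher. So were 9 of 9 in which none was found and 7 of 9 whose models hold the coding sequence only.

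**Figure D5:**
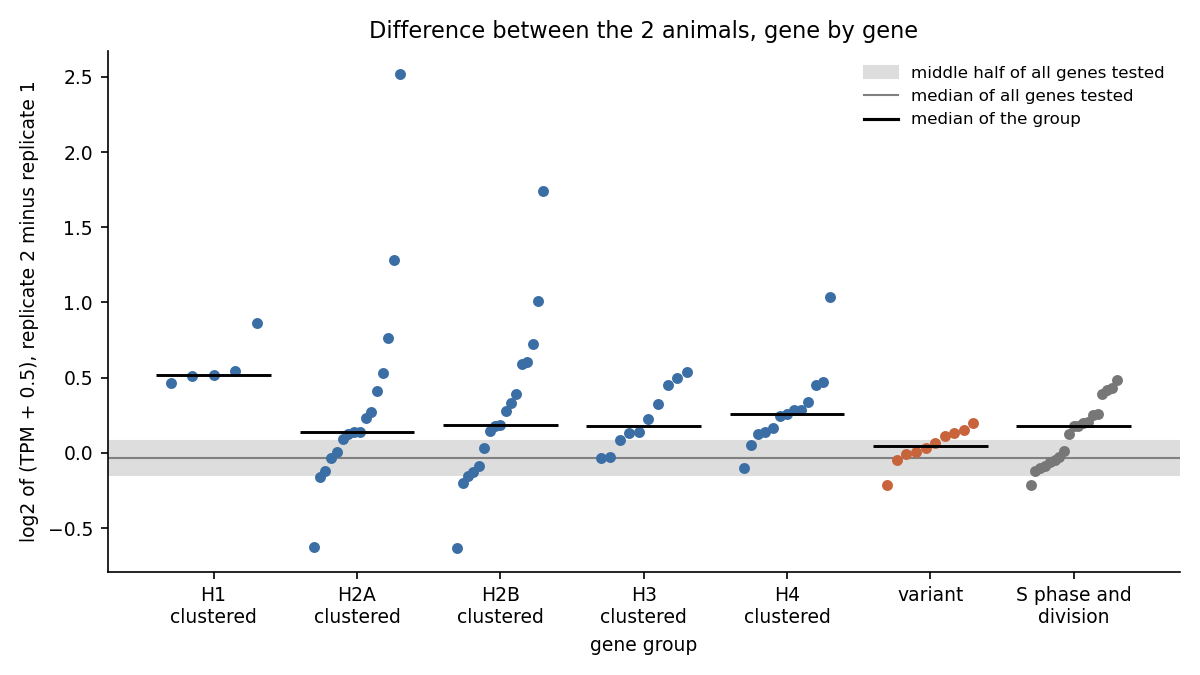
Difference between the animals, log2 of TPM plus 0.5 in replicate 2 minus replicate 1, for each clustered gene averaging 10 counts or more by class, the variant genes and the list of S phase and division genes; black bars are medians, the grey line and band the median and middle 50% of 18136 genes. The H1 points all lie above 0.4, while the variant genes stay between -0.21 and 0.20.

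Marker genes of other cell types also differed between the animals. The oligodendrocyte markers Mbp, Mobp and Mag were all higher in replicate 2, with a summed level of 495.9 and 657.7 TPM and a median difference of 0.41. All 3 choroid plexus markers were as well, with 21.4 and 196.6 TPM in sum, of which Ttr made up 19.5 and 191.9. The 3 red blood cell markers were lower in replicate 2, at 715.3 and 482.0 TPM in sum, while the median of the 5 neuronal markers, -0.02, lay near that of all genes, and by TMM-scaled counts 3 of the 5 were higher. Higher in replicate 2 were 1 of 4 astrocyte, 1 of 3 oligodendrocyte precursor, 2 of 3 microglia and 1 of 3 endothelium markers, against 41.5% of all genes. The 3 leukocyte markers were near 0, at 0.37 and 0.20 TPM in sum, with Ly6g at 0. The part of these cell types in the histone difference was not tested.

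Genes of DNA replication and division were mostly low. Of the 20 on the list, 12 were detected, a share near the 58.4% of protein-coding genes. The highest was Pcna, the sliding clamp of the replication fork, at 22.5 and 22.6 TPM. Then came Ccne1 at 7.63 and 7.29, Mcm7 at 5.52 and 5.12, and Rrm1 at 4.56 and 4.40. Markers of dividing cells were far lower: Mki67 had 32 and 65 counts, Top2a 26 and 50, and Cdk1 2 and 10. The lowest was Cdc6, with 13 and 7 counts. Of the 19 with enough counts, 12 were higher in replicate 2 at a median of 0.18, but by TMM-scaled counts 11 were, at a median of 0.03. Over all genes, 41.5% were higher by TPM and 52.0% by TMM-scaled counts. Mki67 and Top2a were the genes of the list whose counting interval lay above 0.

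Of the 17 genes for histone mRNA 3′ end processing and turnover found in the table, 16 were detected, against 58.4% of protein-coding genes. The highest were Srrt at 79.3 and 76.8 TPM, Cstf2 at 58.4 and 57.1, Sympk, the scaffold of the cleavage complex, at 53.4 in both animals, and Cpsf1 at 36.0 and 38.6. Slbp, which binds the stem-loop, was at 10.6 and 10.3 TPM, Lsm11, of the U7 particle, at 16.9 and 14.5, and Npat, the activator of clustered histone genes, at 6.55 and 7.64. Zfp473 was the lowest, at 0.08 and 0.18 TPM, and Rnu7, the gene of U7 RNA, was listed at 0. The gene table takes 99 bases off each length, so for a short RNA such as U7 a 0 may not mean that it was absent. Of 16 with enough counts, 4 were higher in replicate 2, against 41.5% of all genes. Their median was -0.03, which is also the median of all genes. By TMM-scaled counts 9 were higher, at a median of 0.02, against 52.0% of all genes.

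Histone chaperones and exchange factors were well expressed, with 18 of 21 detected, against 58.4% of protein-coding genes. Nap1l1, a carrier of H2A and H2B, was at 111 and 103 TPM, Atrx, which with Daxx deposits H3.3, at 75.8 and 76.2, Nap1l4 at 47.0 and 49.6, and Srcap, the motor of H2A.Z exchange, at 45.5 and 44.2. Hira, which deposits H3.3 in active genes, was at 36.6 and 32.5 TPM. The chaperones tied to replication were lowest: Chaf1a at 1.05 and 0.85, Chaf1b at 0.41 and 0.34 and Asf1b at 0.21 and 0.32 TPM. The list's median difference was -0.05, with 7 of 20 higher in replicate 2, against 41.5% of all genes.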

How the data were processed

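Total RNA-seq libraries of 2 samples were used, each with a gene table and 2 transcript tables on mm10 with GENCODE M21, per the list deposited with each library. The deposited gene table and first transcript table hold expected counts and TPM under column names that RSEM writes, per the file headers; posterior SDs of counts, a score in the deposited files, were not used for any statement. In the other deposited transcript table, estimated counts and TPM carry the header names of kallisto, per the file headers. The aligner, program versions and strand setting: not given in the sources used here. Members were joined by gene identifier; the members and gene lists were chosen with earlier results of these data known. No test across genes was run, since there is 1 group of 2 samples. Differences are log2 of TPM plus 0.5, for genes averaging 10 counts or more; values over 2 animals are mean ± SD. Alternatives were pseudocounts of 0.1 and 1, detection levels of 0.5 and 2 TPM, TMM (edgeR 4.0.16) and DESeq2 1.42.0 size factors on the rounded expected counts, the spike-in total, the second table, and each replicate alone. Counts of 7 and 11 in rows that name no gene were left out. Genes named are all variants, the 4 highest and the lowest detected of each clustered class, members over 2-fold apart, and the 4 highest and the lowest of each list; others were named after their values were seen. Scripts ran in Python 3.11.15 and R 4.3.3 and were tested on simulated data. Shared sequence was measured in windows of 100 bases over GENCODE M21 transcripts. One marker gene on the lists is not reported here.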

Additional observations from a re-analysis of the deposited data

How the results depend on the processing

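With 2 animals, 1 group and no test, these values describe 2 libraries. Counting intervals cover counting error only and take the split of reads between near copies as known. Of the values that answer a comparison, 69 of the alternatives were labelled as the same and 17 as moved. The limit was the spread between animals for levels and shares, and 1.5 times for counts of genes. A log2 difference has no spread between animals, and the limit used for it is not given here. The cause of the moves was not tested. The number of clustered genes over 2-fold apart, 5, became 3 with a pseudocount of 1 TPM, 1 with TMM-scaled counts, 1 with DESeq2 size factors, 2 scaled to the spike-in total and 10 in the second transcript table. Scaled to the spike-ins, the median log2 difference was 0.36 for the clustered and 0.23 for the variant genes. The median variant level became 51.1 TPM in the second table and 42.6 TPM over its protein-coding transcripts. The variant share of histone TPM became 36.3% in the second table, 32.7% over its protein-coding transcripts and 44.6% by expected counts. For H2A it became 45.8%, 42.9% and 65.1%, and for H3 69.1% in the second table and 79.8% by expected counts. With each replicate alone, 57 to 60 clustered genes were detected and the clustered median ran from 8.59 to 10.2 TPM. For single genes and class shares, 301 alternatives were labelled as the same and 81 as moved. Among the 301 are wide changes of log2 differences in the second table. Hist1h2ao went from 2.52 to 0, Hist1h2bn from 1.74 to 3.32 and Hist1h2bp from 1.01 to 1.78. Among all members whose counting interval excluded 0, only Hist1h4a changed sign, from 0.29 to -0.43 on the log2 scale in the second table. Hist1h2ao had no count there in either animal, so its difference of 2.52 became 0. TMM, DESeq2 size factors and the spike-ins changed the sign of none. No paired analysis was possible because there is 1 group.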

Other observations

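Some histone genes lie outside the member rule. H3f3c, annotated as a processed pseudogene related to H3.3, was at 6.55 and 13.4 TPM in replicates 1 and 2, and Hist1h2al, a processed pseudogene of the Hist1 cluster, at 14.0 and 22.5 TPM. Both were higher in replicate 2 in the gene table, but in the second transcript table H3f3c was not, and Hist1h2al was not compared there. Cenpa, the H3 of centromeres, was at 2.95 and 2.93 TPM. The antisense gene H3f3aos had 30 and 32 counts. The germ-line histone genes H1foo, H1fnt, Hils1, H2al2a, H2afb1, H2afb2 and H2afb3 had no count in either animal.

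Within 1 neighbourhood of the Hist1 cluster, levels in the gene table differed widely between adjacent genes. Hist1h4d at chr13:23581598-23582735 was at 62.0 and 69.7 TPM with 1296 and 1631 counts, and Hist1h2be, whose annotated span ends beside it, was at 3.46 and 3.22 TPM. The second transcript table gave the opposite order, with Hist1h4d at 0.33 and 2.77 TPM and Hist1h2be at 13.9 and 16.1. Hist1h2be shares 496 of its 4446 exon bases with Gm11398 and Hist1h1e on the same strand, so its level depends on how reads were assigned. The transcript split of Hist1h2be was not stable between the animals: Hist1h2be-201 held 50% of its TPM in replicate 1 and 0 in replicate 2, while Hist1h2be-202 went from 14.2% to 71.5%.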
